A study of Homo sapiens with 4 samples.

Results

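The cancer/testis antigen families are groups of genes whose transcripts are normally found in male germ cells and, for several of them, in placenta, and which many tumours transcribe again. They were read from 74 probe sets of 54613 tested, chosen as those for which every annotated symbol begins with MAGEA, MAGEB, MAGEC, GAGE, PAGE, XAGE, SSX, CTAG, BAGE, SPANX or PRAME. Of these, 48 carry 1 symbol (37 symbols in all) and 26 carry several, because they target near-identical copies, and the latter are named by their joined symbols and never as 1 gene. Another 3 probe sets that mix such a symbol with a different one were left out. The rule reads only the symbols. The letters also take in CTAGE genes and SSX2IP, which merely share a prefix with the families (10 probe sets), and these are given apart.

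Total RNA of 2 human colorectal cancer cell lines was hybridised to GeneChip Human Genome U133 Plus 2.0 arrays, with 2 arrays for each line. COLO-320DM is the parental line, and 320-IWR is the line derived from it under continuous exposure to IWR-1, an inhibitor of tankyrase, and it is resistant to tankyrase inhibitors. Both lines were grown in dishes until nearly confluent. The sources do not say whether 320-IWR cells held IWR-1 when RNA was taken, or whether the replicates of a line were grown apart. Nor do they say that 320-IWR is 1 clone. A p-value here therefore sets a difference against the spread between these arrays, and that spread may be technical. Limma also draws the spread of each probe set towards a value estimated over all probe sets.

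Values are probe set intensities on a linear scale, in arbitrary units, made with RMA, and they ran from 3.51 to 22475 over all arrays with array medians of at most 41.8. Pearson's r of the log2 values across probe sets was 0.990 within COLO-320DM and 0.991 within 320-IWR. Between the lines it was 0.987 and 0.988 for arrays of the same replicate number, and 0.983 and 0.980 for arrays of different number. A probe set is said to rise or fall where limma gave a Benjamini-Hochberg adjusted p under 0.05 over all 54613 probe sets and the difference was at least 2-fold, which held for 202 probe sets (0.370%), and for 61 (0.112%) in the direction of a rise. An unadjusted p under 0.05 was given to 5305 probe sets (9.71%), the share against which the unadjusted counts below are to be read. A probe set is called bright where its mean log2 intensity was at least 6 (an intensity of 64) in either line, since no detection calls came with the values and the distance of dim ones from background is unknown. The number of arrays limits the precision. The labelled tissue was checked with 10 markers of colon epithelium, of which 7 were bright and 3 dim. CDX2, the intestinal transcription factor, was bright in both lines (2723 to 3403), while the epithelial adhesion gene EPCAM lay between 13.5 and 35.1 and LGALS4 between 30.3 and 42.3. Of the 10, the keratin genes KRT8 and KRT18 fell (log2 fold changes of -2.26 and -1.67, limma adjusted p = 0.0155 and 0.032) and KRT20 rose (1.78, adjusted p = 0.0412), and none of these 3 was called once any 1 array was left out (adjusted p from 0.0656 to 0.296).

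Most cancer/testis antigen genes of the MAGEA, MAGEC, GAGE, PAGE, XAGE, SSX, CTAG and SPANX families lie on the X chromosome in multicopy clusters and encode small, often disordered proteins or, for MAGE genes, proteins that share the MAGE homology domain and bind ubiquitin ligases. In somatic cells these genes are kept silent largely by methylation of CG sites in their promoters. CTAG1A and CTAG1B encode the same protein, the tumour antigen NY-ESO-1, and CTAG2 encodes its close relative LAGE-1. PRAME, an autosomal gene, encodes a leucine-rich repeat protein that serves as a substrate receptor of a cullin ubiquitin ligase.

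In 320-IWR cells the CTAG probe sets rose by more than 10-fold. The bright MAGEA and PRAME probe sets lay at about the same intensity in both lines. Most probe sets of the remaining families were dim. All 5 probe sets of CTAG1 and CTAG2 were called higher. They are the called members, 2 of 48 with 1 symbol and 3 of 26 with several, and no member fell. Over all probe sets 0.112% were called higher. The members were chosen with earlier results of these data known, and the 5 CTAG probe sets are not independent, so these shares only describe. Among bright probe sets of any gene, 0.783% were called in either direction. The median log2 fold change was -0.04 over members with 1 symbol and -0.01 over members with several, beside 0.01 over all probe sets.

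**Figure D1:**
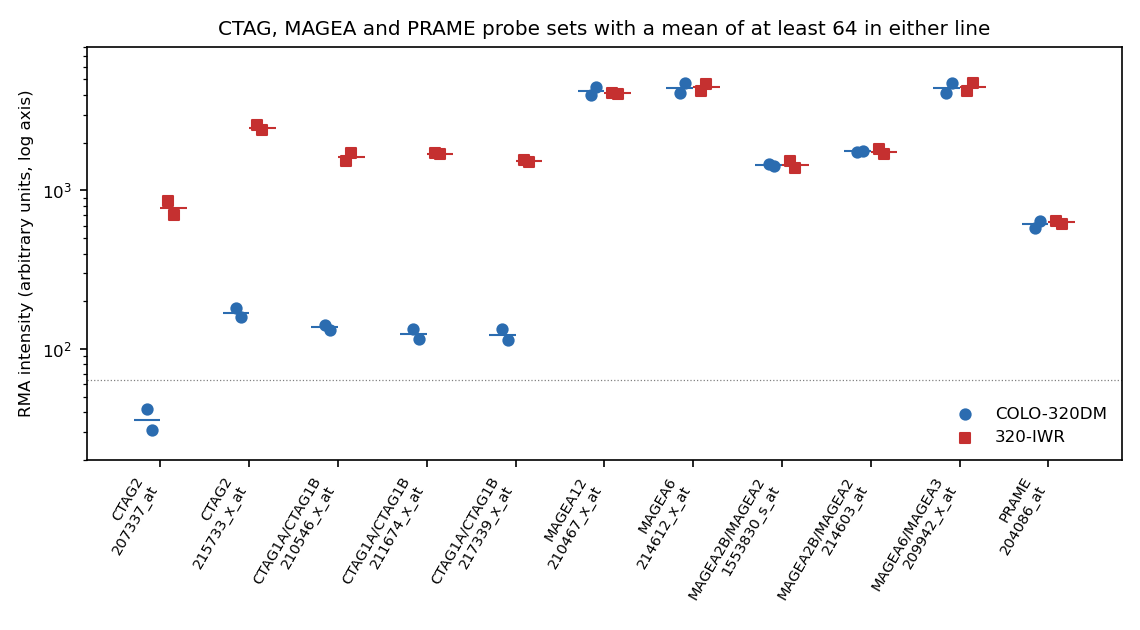
RMA intensity (log axis) on each array for the bright probe sets of the CTAG, MAGEA and PRAME genes. Circles are the COLO-320DM arrays, squares the 320-IWR arrays, horizontal bars the geometric mean of a line (n = 2), and the dotted line an intensity of 64. The 5 CTAG probe sets lie at 30.9 to 180 in COLO-320DM and 697 to 2567 in 320-IWR, while the points of the 2 lines overlie each other in the other probe sets.

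CTAG2 was read by a pair of probe sets with 1 symbol. The intensity of 207337_at was 41.7 and 30.9 in COLO-320DM cells (replicates 1 and 2, here and in all pairs of values) and 859 and 697 in 320-IWR cells. Both COLO-320DM values lie in the range of dim probe sets, and both 320-IWR values are bright. The means were 36.3 ± 7.65 and 778 ± 115 (SD, n = 2), and the log2 fold change was 4.43 with a standard error of 0.21, a 95% interval of 3.90 to 4.97 and a limma adjusted p of 0.00855. The other probe set, 215733_x_at, gave 180 and 160 in COLO-320DM and 2567 and 2386 in 320-IWR. Its means were 170 ± 14.4 and 2477 ± 128 (SD, n = 2), a 14.6-fold difference (log2 fold change 3.86, standard error 0.13, 95% interval 3.52 to 4.21, limma adjusted p = 0.00807). Both probe sets thus separate the lines without overlap, as do 19.5% of all probe sets with 320-IWR the higher line. The interval of each lies above a 10-fold difference.

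The twin genes CTAG1A and CTAG1B were read together by 3 probe sets. In 210546_x_at the intensities were 142 and 132 in COLO-320DM and 1532 and 1708 in 320-IWR, an 11.8-fold difference (log2 fold change 3.56, 95% interval 3.22 to 3.90). In 211674_x_at they were 134 and 117 against 1712 and 1694, a 13.6-fold difference (3.77, 95% interval 3.43 to 4.11). In 217339_x_at they were 134 and 114 against 1547 and 1516, a 12.4-fold difference (3.63, 95% interval 3.28 to 3.99). The standard errors were 0.13, 0.13 and 0.14, and the limma adjusted p was 0.00807 for each. None of the 3 had overlapping arrays, against 19.5% of all probe sets that lay apart in that direction. The array design marks with _x_at a probe set whose probes may also match other transcripts, and 4 of the 5 CTAG probe sets carry that mark, so they do not measure CTAG1 and CTAG2 independently. The CTAG2 probe set without the mark, 207337_at, was called too. No probe set without the mark reads CTAG1A or CTAG1B, so a rise of CTAG1 apart from CTAG2 is not shown. In RNA from whole cultures, more cells that transcribe a gene and more of its RNA per cell cannot be told apart.

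The CTAG calls were lost when either 320-IWR array was left out, while the fold changes stayed near their values. A line left with 1 array is assumed to vary like the other line. The spread then comes from that other line and from limma's prior, a variance drawn from all probe sets. Without COLO-320DM replicate 1 or 2 the 5 probe sets had limma adjusted p from 0.0382 to 0.0426. Without 320-IWR replicate 1 the adjusted p was 0.129, and without replicate 2 it was 0.141 or 0.148. In both of these fits limma called 0 of all probe sets, with 3756 and 3502 at an unadjusted p under 0.05, so the loss is not particular to CTAG. Over these and the other settings tried, the log2 fold change of 207337_at ran from 3.93 to 4.65 and that of 215733_x_at from 3.74 to 3.95. The CTAG1A;CTAG1B probe sets kept between 3.41 and 3.87.

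**Figure D2:**
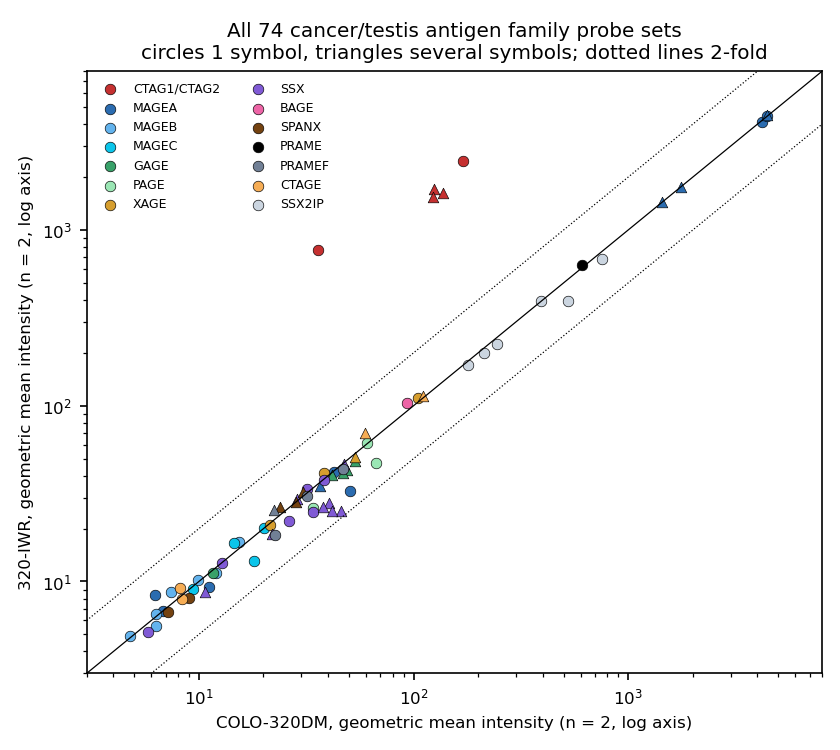
Geometric mean intensity (n = 2) in COLO-320DM on the horizontal and in 320-IWR on the vertical log axis for all 74 probe sets, coloured by family. The solid line marks equal intensity and the dotted lines a 2-fold difference. The 5 CTAG probe sets stand above the upper dotted line and the other 69, with log2 fold changes from -0.87 to 0.41, lie between the dotted lines.

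Among the MAGEA genes, which encode partners of ubiquitin ligases such as TRIM28, the probe sets of MAGEA12 and MAGEA6 and the joined probe sets MAGEA6;MAGEA3 and MAGEA2B;MAGEA2 were bright in both lines. MAGEA12 (210467_x_at) gave 3963 and 4472 in COLO-320DM and 4129 and 4056 in 320-IWR. The values of the lines interleave, and the log2 fold change was -0.04 (standard error 0.13, 95% interval -0.37 to 0.29, limma adjusted p = 0.997). For MAGEA6 (214612_x_at) they were 4134 and 4770 against 4253 and 4705, with a log2 fold change of 0.01 (standard error 0.14, 95% interval -0.35 to 0.38, limma adjusted p = 1.0). The intervals allow a difference of at most 0.38 on the log2 scale in either direction, which is less than 2-fold.

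Probe sets that join copies gave the same picture. MAGEA6;MAGEA3 (209942_x_at) lay at 4134 and 4729 in COLO-320DM and 4236 and 4764 in 320-IWR (log2 fold change 0.02, standard error 0.14, 95% interval -0.34 to 0.39). MAGEA2B;MAGEA2 lay at 1462 and 1426 against 1526 and 1374 in 1553830_s_at (0.00, standard error 0.12, 95% interval -0.32 to 0.33). Its second probe set, 214603_at, read 1756 and 1760 against 1818 and 1686 (-0.01, standard error 0.12, 95% interval -0.32 to 0.30). The limma adjusted p of these 3 was 1.0, and in each of them the arrays of one line overlap those of the other. Several of these probe sets share sequence, and MAGEA6 and MAGEA6;MAGEA3 have nearly the same value on every array, so they are not separate pieces of evidence. CSAG2;CSAG3, a probe set of genes that neighbour the MAGEA genes and are counted among the other cancer/testis genes, lay at 1246 and 819 against 1162 and 865 (log2 fold change -0.01, 95% interval -0.70 to 0.68).

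The promoters of the MAGEA genes that the bright probe sets are annotated to are shown because they make visible how alike the copies are. Which copy of a joined pair was transcribed cannot be told from these arrays. The windows run from 250 bases before to 50 after the annotated start (RefSeq, GRCh38.p14), 5′ to 3′ on the gene's strand, and the capitals mark each CG, the site that can be methylated. Such windows were matched for 60 of the 72 member symbols. MAGEA3 at chrX:152698544-152698843 on the plus strand has the same 300 bases as MAGEA6 at chrX:152769640-152769939 on the minus strand. MAGEA2 at chrX:152753793-152754092 on the minus strand has the same 300 bases as MAGEA2B at chrX:152714378-152714677 on the plus strand. MAGEA12 lies at chrX:152733612-152733911 on the plus strand.
MAGEA3 and MAGEA6: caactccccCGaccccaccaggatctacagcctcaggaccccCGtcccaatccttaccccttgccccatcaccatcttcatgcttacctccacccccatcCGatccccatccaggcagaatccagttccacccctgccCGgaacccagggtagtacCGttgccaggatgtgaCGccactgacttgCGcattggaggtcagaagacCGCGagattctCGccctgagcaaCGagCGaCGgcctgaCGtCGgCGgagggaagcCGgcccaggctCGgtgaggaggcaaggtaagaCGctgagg
MAGEA2 and MAGEA2B: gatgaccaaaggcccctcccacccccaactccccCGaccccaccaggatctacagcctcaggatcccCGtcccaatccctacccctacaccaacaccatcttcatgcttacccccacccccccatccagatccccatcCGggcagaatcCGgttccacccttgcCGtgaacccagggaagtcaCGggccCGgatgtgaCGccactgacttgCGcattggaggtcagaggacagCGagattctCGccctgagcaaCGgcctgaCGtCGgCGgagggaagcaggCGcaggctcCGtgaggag
MAGEA12: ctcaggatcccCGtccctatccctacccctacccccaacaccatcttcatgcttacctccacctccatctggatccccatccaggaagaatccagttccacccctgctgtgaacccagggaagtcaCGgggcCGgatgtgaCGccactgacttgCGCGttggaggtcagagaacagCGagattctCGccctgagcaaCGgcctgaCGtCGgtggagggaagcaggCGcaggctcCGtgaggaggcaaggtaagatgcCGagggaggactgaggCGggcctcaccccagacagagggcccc
In a global alignment with the MAGEA3 window, 252 bases of the MAGEA2 window and 236 of the MAGEA12 window are identical. MAGEA2 and MAGEA12 each have a second annotated start, whose windows are not printed and share 213 and 203 bases with that of MAGEA3. The printed windows of MAGEA3, MAGEA2 and MAGEA12, chosen for their likeness to one another, hold 19, 17 and 15 CG sites, and the second windows of MAGEA2 and MAGEA12 hold 13 and 9, against a median of 14 (quartiles 4 and 28) over 35116 windows of all genes and a median of 12 over the 77 windows of member symbols. The motif CCGGAA, a form of the core of ETS factor sites, was searched on both strands and overlaps a CG. It occurs once in the MAGEA3 and MAGEA6 window, is absent from the printed MAGEA2 and MAGEA12 windows, and is found in 17.2% of all windows. Other forms were not searched for. The printed MAGEA2 and MAGEA12 windows hold CCGGAT, so the absence of CCGGAA from them is not the absence of an ETS site. These are descriptions of the reference sequence. No methylation was measured on these arrays.

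The other MAGEA transcripts were dim. MAGEA1, the first gene of the family to be found as a tumour antigen, gave 41.6 and 44.0 in COLO-320DM and 41.1 and 42.6 in 320-IWR (log2 fold change -0.03, 95% interval -0.34 to 0.28). MAGEA4 gave 6.37 and 7.31 against 6.38 and 7.27. The largest differences in the family without a call were those of MAGEA10, at 46.6 and 55.3 against 36.2 and 30.0 (-0.62, standard error 0.16, limma adjusted p = 0.305), and of MAGEA11, at 6.76 and 5.83 against 8.27 and 8.44 (0.41, standard error 0.13, adjusted p = 0.415). These genes were picked for their differences after the values were seen. MAGEA9B;MAGEA9 gave 36.3 and 36.6 against 32.2 and 38.2, with overlapping lines, and MAGEA8 had a log2 fold change of -0.25.

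PRAME was bright in both lines. Its probe set 204086_at gave 582 and 640 in COLO-320DM and 644 and 616 in 320-IWR. The arrays overlap, and the log2 fold change was 0.04 (standard error 0.12, 95% interval -0.28 to 0.37, limma adjusted p = 0.995). The 4 probe sets of the related PRAMEF genes were dim (17.1 to 49.6), with log2 fold changes from -0.30 to 0.18. PRAMEF11, the brightest of them, lay at 49.6 and 44.4 against 43.4 and 44.2.

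**Figure D3:**
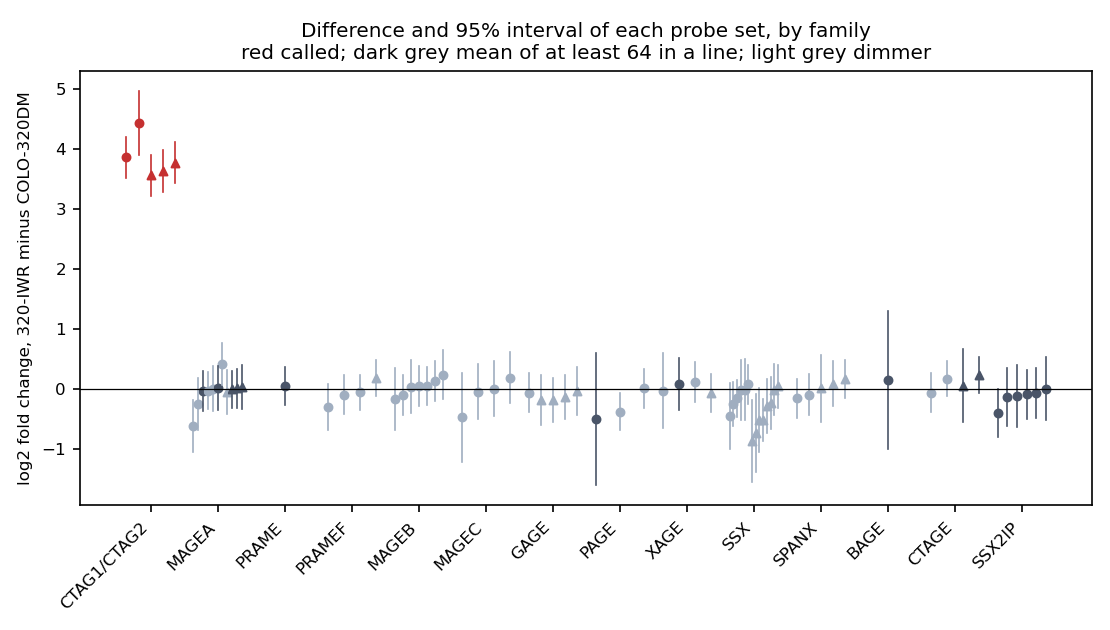
Log2 fold change, 320-IWR minus COLO-320DM, with its 95% interval for each of the 74 probe sets, grouped by family. Circles carry 1 symbol and triangles several. Red marks called probe sets, dark grey other bright ones and light grey dim ones. The intervals of the 5 CTAG probe sets lie between 3.22 and 4.97, and the points of the SSX family run from -0.87 to 0.08.

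Of the 74 members, 52 were dim, with intensities from 4.22 to 64.3 and log2 fold changes from -0.87 to 0.41 (median -0.06). Limma called 0 of them, with 6 at an unadjusted p under 0.05 and a lowest adjusted p of 0.299. The GAGE genes, a tandem array that encodes small acidic proteins, had 5 probe sets between 11.0 and 55.8. The brightest of them joins 12 GAGE symbols and gave 50.9 and 55.8 against 52.1 and 44.7. MAGEB genes (7 probe sets) lay between 4.22 and 17.8 with MAGEB4 the brightest at 15.8 and 14.99 against 17.8 and 15.9. MAGEC genes (4 probe sets) lay between 7.998 and 23.8, and the brighter probe set of MAGEC2 gave 17.9 and 22.4 against 21.9 and 18.4. SPANX genes, which encode nuclear proteins of spermatids, had 5 probe sets between 6.30 and 35.3. The brightest, SPANXA2;SPANXC;SPANXA1, gave 29.9 and 31.0 against 29.5 and 35.3. How far these intensities lie above background is unknown, so a difference was not detectable rather than shown to be absent.

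The SSX genes encode transcriptional repressors known as partners in the fusion proteins of synovial sarcoma. Their 14 probe sets were dim throughout (5.09 to 58.6), and limma called 0, with 3 at an unadjusted p under 0.05 (9.71% of all probe sets). The log2 fold changes had a median of -0.24. In 8 of the 14 both 320-IWR arrays lay below both COLO-320DM arrays and in 0 above, against 16.1% and 19.5% of all probe sets. The lowest was SSX4B;SSX4 (210394_x_at), at 36.1 and 58.6 in COLO-320DM and 23.1 and 27.4 in 320-IWR (log2 fold change -0.87, standard error 0.27, limma adjusted p = 0.379). Another probe set of the same pair, 211425_x_at, gave 41.7 and 42.0 against 19.8 and 31.7 (-0.74, standard error 0.25, adjusted p = 0.434). SSX2B;SSX2 (210497_x_at) gave 37.9 and 42.9 against 29.5 and 26.8 (-0.52, standard error 0.13, adjusted p = 0.299). The brightest SSX probe set, SSX2B;SSX3;SSX2, lay between 41.8 and 52.4 over the 4 arrays and overlapped between the lines. Most SSX probe sets carry the _x_at mark and several share symbols. The 12 negative and 2 positive log2 fold changes therefore cannot be taken as 14 separate observations, and none of the differences passed the test. Over all 69 members without a call, 16 lay apart in the lower and 8 in the higher direction.

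A few members of the PAGE, XAGE and BAGE families were bright. PAGE1 gave 45.4 and 98.0 in COLO-320DM and 38.2 and 58.0 in 320-IWR (log2 fold change -0.50, standard error 0.42, 95% interval -1.61 to 0.60, limma adjusted p = 0.875). BAGE2 gave 70.8 and 123 against 71.7 and 148 (0.14, standard error 0.44, 95% interval -1.01 to 1.29, adjusted p = 0.997). In both genes the arrays numbered 2 are the brighter ones in each line, and the intervals reach past 2-fold. A probe set annotated as XAGE-4 gave 106 and 104 against 126 and 97.2 (0.08, standard error 0.17, adjusted p = 0.987). PAGE4, which encodes a stress-response protein of the prostate, was dim at 34.6 and 33.5 against 25.4 and 26.8 (-0.38, adjusted p = 0.382). PAGE5 lay at 58.1 to 64.3 and XAGE1A;XAGE1B at 48.8 to 54.5, in each case with overlapping lines.

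The genes that share only letters with the families were bright in most of their probe sets and had no call. SSX2IP encodes a protein of adherens junctions and centrosomes that binds SSX2. Its 6 probe sets lay between 154 and 851 with log2 fold changes from -0.40 to 0.00. In 203017_s_at the intensities were 481 and 571 in COLO-320DM and 368 and 425 in 320-IWR. They did not overlap, like 16.1% of all probe sets in that direction (-0.40, standard error 0.15, 95% interval -0.81 to -0.00, limma adjusted p = 0.513). The other 5 overlapped between the lines, with adjusted p of at least 0.957: 203016_s_at gave 667 and 851 against 618 and 757, 203018_s_at 345 and 449 against 350 and 444, and 210871_x_at 211 and 286 against 206 and 245. The last pair, 203015_s_at and 203019_x_at, gave 193 and 237 against 189 and 212, and 171 and 190 against 154 and 190. CTAGE8;CTAGE4;CTAGE9 gave 61.5 and 58.0 against 70.4 and 69.7 (0.23, standard error 0.12, adjusted p = 0.678). A second joined CTAGE probe set gave 120 and 101 against 139 and 93.3 (0.05, standard error 0.23, adjusted p = 1.0).

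The surroundings of the CTAG genes on chromosome X were examined to see whether their neighbours moved as well. In the gene table of GRCh38.p14, 58 genes start within 500 kb of CTAG2, and 21 of them besides CTAG2 were measured by a probe set with 1 symbol, 15 of them bright. Limma called 0 of the 21, with 3 at an unadjusted p under 0.05 and a lowest adjusted p of 0.185, against 0.370% called and 9.71% at that unadjusted p over all probe sets. Their log2 fold changes had a median of 0.04. F8, the gene of coagulation factor VIII, had the highest value, at 29.2 and 31.8 in COLO-320DM and 48.9 and 62.7 in 320-IWR (0.86, 95% interval 0.43 to 1.30). PLXNA3, a semaphorin receptor gene, had the lowest, at 130 and 103 against 74.1 and 64.3 (-0.75, 95% interval -1.19 to -0.30). FAM223B and GAB3, the measured genes closest to CTAG2, were dim, with log2 fold changes of 0.08 and 0.04. IKBKG, the gene of the NEMO subunit of the NF-kappaB kinase, has a near-identical pseudogene copy nearby, so its probe set is uncertain. It was bright at 339 and 318 against 407 and 364 (0.23, 95% interval -0.11 to 0.56). These genes were singled out after their values were seen.

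**Figure D4:**
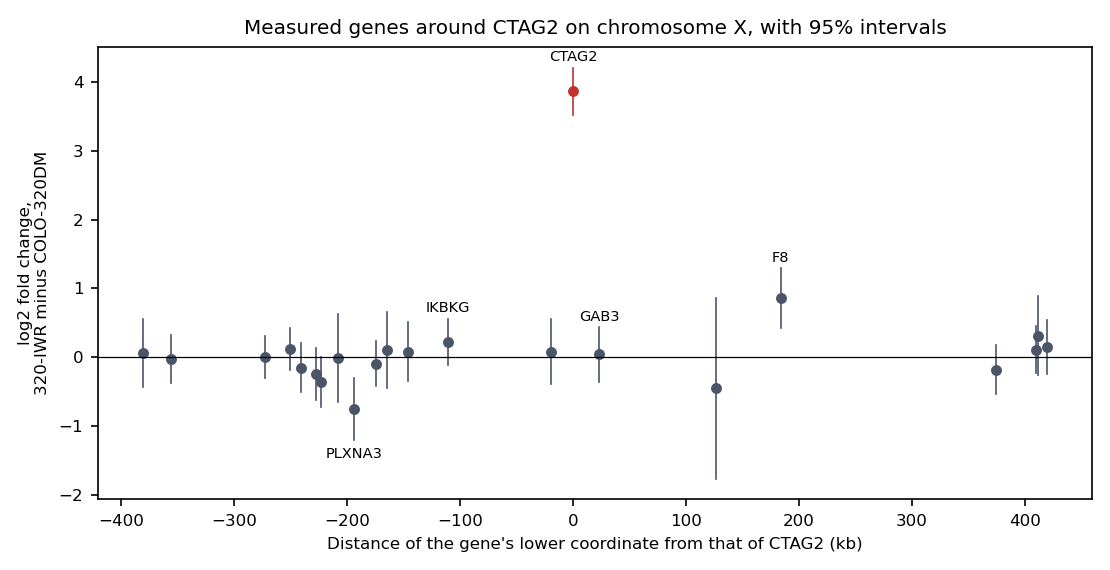
Log2 fold change, 320-IWR minus COLO-320DM, with 95% intervals for CTAG2 (red, 215733_x_at) and the 21 measured genes around it (grey), by distance in kb from CTAG2. The neighbours run from -0.75 (PLXNA3) to 0.86 (F8), and CTAG2 stands at 3.86.

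Other genes of the cancer/testis class, proteins that bind the encoded antigens and regulators of their silencing were counted from lists, each gene by its brightest probe set. Of 116 other cancer/testis genes measured, 31 were bright, 1 rose and 0 fell, with a median log2 fold change of 0.03, beside 0.370% called over all probe sets. An unadjusted p under 0.05 was found for 6 of the 116, beside 9.71%. The riser was NOL4, a nucleolar protein gene, at 20.4 and 18.6 in COLO-320DM and 69.1 and 76.4 in 320-IWR (1.90, standard error 0.13, limma adjusted p = 0.0204), and it was not called once any 1 array was left out (adjusted p from 0.105 to 0.234). Its second probe set, 238605_at, gave 9.20 and 12.6 against 43.3 and 32.2 and was not called (1.79, adjusted p = 0.0884). Over any probe set of a gene, SPAG6, which encodes a protein of the sperm tail axoneme, was called as well. It lay at 146 and 110 against 22.9 and 19.8 in 210033_s_at (-2.57, adjusted p = 0.0243), and at 259 and 154 against 62.8 and 40.5 in its brighter probe set, which was not called (-1.98, adjusted p = 0.148). Large differences without a call were also those of SPAG17, another axonemal gene, at 152 and 50.6 against 23.3 and 16.6 (-2.16, adjusted p = 0.287), and of IL13RA2, a decoy receptor of interleukin 13, at 111 and 82.4 against 20.6 and 31.1 (-1.92, adjusted p = 0.102). Both were singled out after their values were seen.

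Of the 10 measured type II MAGE genes, relatives of the MAGEA genes that are transcribed in many tissues, limma called 0, with 3 at an unadjusted p under 0.05. Among the bright ones, MAGED1 gave 3221 and 3302 against 1629 and 1794 (-0.93, standard error 0.12, limma adjusted p = 0.0930), and MAGEE1 had -0.42 (adjusted p = 0.755). The dim MAGEH1 had the lowest value of the list, at 61.1 and 47.6 against 25.5 and 27.2 (-1.03, adjusted p = 0.132). The log2 fold change was negative in 8 of the genes and positive in 2. In 5 of the 10 genes, MAGED1 among them, both 320-IWR arrays lay below both COLO-320DM arrays, and in 1 above. The shares over all probe sets were 16.1% and 19.5%, and none of these differences passed the test. Of 38 regulators of silencing, such as DNA methyltransferases, histone deacetylases and Polycomb proteins, 0 were called and 5 had an unadjusted p under 0.05 (0.370% and 9.71% of all probe sets). EED, a Polycomb subunit, gave 1010 and 1172 against 1588 and 1713 (0.60, adjusted p = 0.244), and the corepressor gene SIN3A 186 and 198 against 303 and 265 (0.56, adjusted p = 0.254). Of 18 binding partners 0 were called and 1 had an unadjusted p under 0.05. Both 320-IWR arrays lay above both COLO-320DM arrays in 6 of the partners and below in 0. Among the regulators these counts were 11 and 3. BANF1, the gene of a chromatin barrier protein, had a log2 fold change of 0.67 (adjusted p = 0.836) and the ubiquitin ligase gene TRIM27 one of 0.57 (adjusted p = 0.309).

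**Figure D5:**
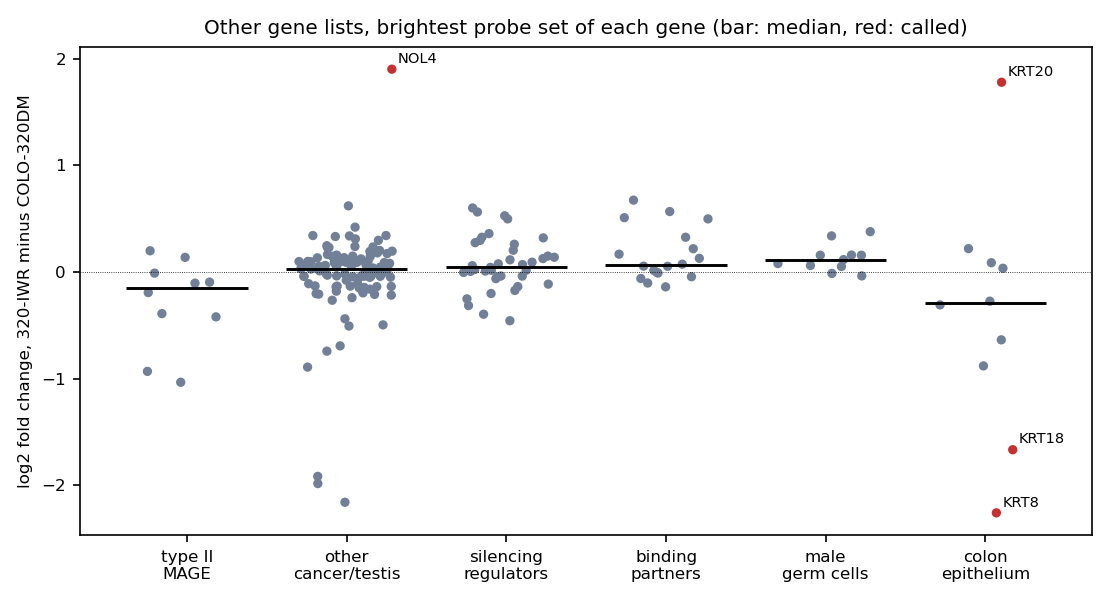
Log2 fold change, 320-IWR minus COLO-320DM, of the brightest probe set of each gene in 6 lists. Each point is a gene, the bar is the list's median and red marks called genes. NOL4 stands at 1.90 among 116 other cancer/testis genes, and the 11 male germ cell markers lie between -0.04 and 0.38 with none called.

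Markers of male germ cells, in which the families are normally transcribed, were read beside the CTAG rise. Of 11 markers 10 were dim. Limma called 0 of the 11, and 1 had an unadjusted p under 0.05, against 0.370% and 9.71% of all probe sets. Both 320-IWR arrays lay above both COLO-320DM arrays in 4 of the markers and below in 0. The shares over all probe sets were 19.5% and 16.1%. The germ cell RNA helicase gene DDX4 lay between 12.3 and 25.7, DAZL between 4.98 and 5.58, the meiotic genes SYCP1 and SYCP3 between 5.16 and 7.11, and the protamine gene PRM2 between 9.88 and 14.2. The summed intensity of the 11 markers was 238 to 239 in COLO-320DM and 254 to 262 in 320-IWR. Since 10 of them were dim, how much of this sum lies above background is unknown. Limma also called 0 of the measured markers of neuroendocrine cells (8, 1 at an unadjusted p under 0.05), Sertoli and Leydig cells (7), trophoblast (8), melanocytes (5), leukocytes (6) and fibroblasts (7), with none of the latter 5 lists at an unadjusted p under 0.05.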

How the data were processed

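RNA from COLO-320DM and 320-IWR cultures had been hybridised to 4 arrays, and each was assigned to its line by its label. The deposited intensities are on a linear scale and were made by the authors with RMA (version not given in the submitters' processing notes), with GeneSpring GX named in the study's methods for normalization. No scanner files or detection calls were used here. Log2 was taken with a floor of 1, and 54613 of 54675 probe sets (62 controls left out) were tested with limma 3.58.1 in R 4.3.3, in a model whose single term was the cell line, with Benjamini-Hochberg adjustment. Limma's prior had 2.78 degrees of freedom. Symbols came from the supplied platform annotation, and 70 of the 72 member symbols matched the GRCh38.p14 table by gene ID. Members called or bright are named with all values, other members by family with its brightest probe set, and genes of other lists if called, or else the 2 bright ones with the largest change. Genes named beyond this were chosen after their values were seen. The members and lists were chosen with earlier results of these data known. The procedure was run on simulated data with known changes, checking the sign and mean of the recovered differences. Errors were drawn independently for each array, without the deviations that same-numbered arrays share, so the run does not bear on the calls here. Alternatives were leaving out each array, a block for the replicate number, cyclic loess, equal medians, a filter on dim probe sets, 16 added before log2, a trended robust prior, other thresholds, and probe sets without _x_at or _s_at.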

Additional observations from a re-analysis of the deposited data

How the results depend on the processing

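With 2 arrays a line, the number of calls moved with the settings while the CTAG folds did not. Against 202 probe sets called, adding 16 before log2 gave 111, an adjusted p under 0.01 gave 43, and leaving out 1 array gave 0 to 63. With the replicate number as a block, 576 were called. The labels do not say that equal numbers share a culture or day, and the deviations of same-numbered arrays from their line's mean correlated at 0.661 over probe sets. Leaving out 1 array gave 0 to 2 called members with 1 symbol and 0 to 3 with several. With all probe sets marked _x_at or _s_at removed, 1 member with 1 symbol (CTAG2, 207337_at) and 0 with several were called. All CTAG1A;CTAG1B probe sets carry the _x_at mark, so none of them was left to call. For the other cancer/testis genes, type II MAGE genes, regulators and partners, 1 gene was called (NOL4). The count was 2 with the replicate block, 2 over any probe set, 0 with 16 added, 0 at an adjusted p under 0.01 and 0 whichever array was left out. The cause of these moves was not tested. The counts of 5 CTAG probe sets, 0 neighbours of CTAG2 and 0 of 17 bright members not called were the same under cyclic loess, equal medians, the filter, the robust prior and the replicate block. Dim members, whose signal over background is unknown, limit what can be read from the GAGE, MAGEB, MAGEC, SSX and SPANX families.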
